A study of Mus musculus with 12 samples.

Results

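Single S-shaped bodies and renal vesicles, 2 successive stages of the forming nephron, were compared on 6 of the 12 arrays of a study of microdissected mouse kidney. The arrays were chosen by their sample titles: 3 hold RNA from 1 S-shaped body each (replicates 3, 4 and 5) and 3 hold RNA from pools of 20 renal vesicles (replicates 2, 3 and 4). All samples came from wild-type Swiss Webster embryos of unrecorded sex at E14.5, Theiler stage 22. The rest of the study consists of 3 arrays from pools of 20 S-shaped bodies, whose values are given beside the named genes, and 3 of collecting duct. The structures were dissected by morphology, and the submitters checked identity by antibody and lectin staining and by RT-PCR. RNA was extracted with TRIzol, passed through 2 rounds of T7 amplification, labelled with biotin and hybridized to Affymetrix MG_U74Av2 arrays. Stage and amount of starting tissue coincide in this comparison, 1 structure against 20, and the effects of both cannot be told apart. The labels call the samples biological replicates without naming the embryos behind them, so the p-values rest on the variation among these 6 arrays alone, which may be technical.

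The renal vesicle is the first epithelial structure of the nephron. It forms when cap mesenchyme cells, held as progenitors by Six2, receive Wnt signals from the ureteric bud and switch on Wnt4, Pax8 and Lhx1. Through a comma-shaped stage the vesicle becomes the S-shaped body, whose proximal end gives rise to podocytes and parietal cells, whose middle and distal parts give rise to the tubule, and into whose cleft endothelial cells grow to start the glomerular capillaries.

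All 12422 probe sets other than controls were used, and 9316 passed a filter on low mean signal and were tested. The probe sets tested covered 6757 genes, each read from 1 probe set, the brightest that carries its symbol alone. Levels are given as log2(normalized intensity + 7.22), on which a value of 2.85 means a signal at or below 0. Levels of different genes cannot be ranked against each other on these arrays. The deposited signal was weaker on the single arrays, with a mean of 46.98 ± 24.63 intensity units against 116 ± 12.94 on the vesicle arrays (SD, n = 3 each), and single replicate 3 was the dimmest of all at 21.45. Above background stood 51.66% ± 3.096 of probe sets against 58.26% ± 1.516, and the 3′ to 5′ ratio of the beta-actin controls was 85.7 ± 8.64 against 39.59 ± 3.62 (SD, n = 3 each). For each of these measures the groups did not overlap, with an exact permutation p of 0.1, the smallest that 3 against 3 allows (two-sided). The Gapdh control ratio was 10.78 in single S-shaped bodies and 10.96 in vesicles. Levels on the single arrays correlated with each other at r between 0.88 and 0.916 across probe sets and with vesicle arrays at r between 0.741 and 0.845. The part that signal strength, RNA amount and amplification have in the differences below was not tested.

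At an adjusted p under 0.05 (limma, Benjamini-Hochberg over all probe sets), 1167 probe sets were higher and 1358 lower in single S-shaped bodies, 27.1% of those tested, and 2044 of the 2525 changed at least 2-fold. Counted by gene, 12.4% were called higher and 15.6% lower, with a median difference over all genes tested of -0.04 on the log2 scale. Groups did not overlap for 20.8% of genes with the single arrays higher and for 24.4% with them lower. Among the probe sets tested the share called rose with the level, from 5.62% higher and 7.08% lower in the 25% with the lowest mean level to 19.8% and 22.8% in the 25% with the highest. Called or not, 374 probe sets were above background on every vesicle array and on no single array, against 85 with the reverse pattern. Of the 374, 85 were above background on all 3 pooled S-shaped arrays and 142 on none of them. Leaving out vesicle replicate 2 gave 734 higher and 805 lower, and leaving out vesicle replicate 4 gave 782 and 801. Without normalization the dimmer single arrays moved the median difference to -1.06, and 217 probe sets were called higher and 4132 lower. All differences below are relative to the array's own distribution, and a list whose median turns sign on the deposited scale is named as such.

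Several genes that mark the nephron progenitor and the renal vesicle were lower in the single S-shaped body. On their lists 5 of 12 and 8 of 15 fell, 41.7% and 53.3% against 15.6% of all genes. Wnt4, the secreted signal that drives the mesenchyme to become epithelium, read 7.70, 7.35 and 7.82 on the 3 vesicle arrays and 2.85, a signal at or below 0, on each of the 3 single arrays. All 3 pooled S-shaped arrays also read 2.85, so Wnt4 separated the vesicles from both sets of S-shaped bodies without overlap. The fitted difference was -4.77 ± 0.36 (SE, adjusted p = 0.00017). The 3 single values were made equal by the floor at a signal of 0, so this SE and p hold no measured spread among the single arrays. Because Wnt4 was above background on no single array, its fold is given as a bound, at least 5.97-fold lower. Such a bound sets the mean of the brighter group against, on each array of the dimmer one, the higher of the gene's own level and the lowest level above background there.

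Pax8, a paired box transcription factor of the nephron lineage, read 8.30, 8.44 and 8.23 in vesicles and 2.85, 5.85 and 4.80 in single S-shaped bodies, a difference of -3.82 ± 0.65 (adjusted p = 0.0031). The single arrays spread widely and all lay below the vesicles, and the pooled arrays read 4.95, 5.70 and 6.08. Lhx1, a LIM homeobox factor needed for the vesicle to be patterned, read 7.25, 6.84 and 7.47 against 5.19, 6.01 and 4.996 (difference -1.79 ± 0.37, adjusted p = 0.0079). Papss2, which makes the sulfate donor used to modify proteoglycans, was at least 11.2-fold lower, with 9.20, 7.82 and 8.57 in vesicles and at most 4.40 in single S-shaped bodies. The Notch ligand Dll1 fell by 3.29 and the Notch target Hey1 by 1.65 on the log2 scale.

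Of 15 tested genes on the list of renal vesicle and early nephron genes, 8 fell and 2 rose. These are 53.3% and 13.3%, against 15.6% and 12.4% of all genes. The median difference was -1.65 against -0.04 over all genes. Over the alternatives it ran from -2.43 on the deposited scale to -0.40, and in 17 of them it moved by at least the spread between arrays. The count of falls stayed at 8 when any 1 array was left out. It was 3 among probe sets above background on all 6 arrays, where genes such as Wnt4 are not tested. The 8 that fell were Wnt4, Papss2, Pax8, Dll1, Ccnd1, Lhx1, Sfrp2 and Hey1. Ccnd1, the G1 cyclin, read 10.35, 10.49 and 10.09 in vesicles and 7.03, 6.997 and 7.23 in single S-shaped bodies (difference -3.22 ± 0.19, adjusted p = 0.00012). A dimmer Ccnd1 probe set went the other way, from a mean of 6.74 to 7.71 (difference 0.97 ± 0.32, adjusted p = 0.049), so the gene's direction rests on the probe set. The 2 that rose were Cdh4, a cadherin, which read 6.75, 5.75 and 6.30 against 9.94, 8.94 and 8.94 (difference 3.002 ± 0.36, adjusted p = 0.0007), and Tcf21, which also stands among the podocyte genes. The Notch effector genes Hes1 and Hes5 and the signal gene Bmp2, also on the list, were not called, with differences between -0.02 and 0.21.

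The progenitor genes gave 5 of 12 lower and 0 higher, 41.7% and 0% against 15.6% and 12.4% of all genes. Their median was -1.29, but -0.21 with bounds in place of fitted values where 1 group was at background. Of the 13 on the array, 6 were above background on no single array and 2 on no vesicle array. With limma's unadjusted p under 0.05, 1 was higher and 6 lower. Uncx, a homeobox gene of the cap mesenchyme, read 9.51, 9.16 and 8.81 in vesicles and 5.49, 5.16 and 3.41 in single S-shaped bodies (difference -4.47 ± 0.51, adjusted p = 0.00058). Gdnf, the ligand that calls the ureteric bud into the mesenchyme, read 8.75, 7.94 and 8.16 against 4.08, 4.07 and 3.77, at least 9.44-fold lower. The pooled S-shaped arrays stood between at 6.08, 6.39 and 6.73, with no overlap among the 3 groups. A second, dimmer Gdnf probe set showed no such gap, with a difference of -0.18 (adjusted p = 0.83).

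Six2, which keeps progenitors undifferentiated, read 7.97, 7.93 and 7.99 in vesicles and 5.47, 7.13 and 6.37 in single S-shaped bodies (difference -1.63 ± 0.40, adjusted p = 0.015). It remained detectable on every single array, and the call was lost without vesicle replicate 2 or 4 (adjusted p up to 0.074 over all alternatives). Hoxa11 fell by 1.86 and Crym was at least 1.18-fold lower. Ncam1, an adhesion molecule of condensed mesenchyme, differed by -1.17 (adjusted p = 0.054), and Eya1, Meox1, Pax2, Itga8, Hoxd11 and Wt1 were not called. The progenitor list's summed level was 6.75, 6.47 and 6.45 as a mean over 13 genes in vesicles and 5.24, 5.44 and 5.09 in single S-shaped bodies.

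**Figure D1:**
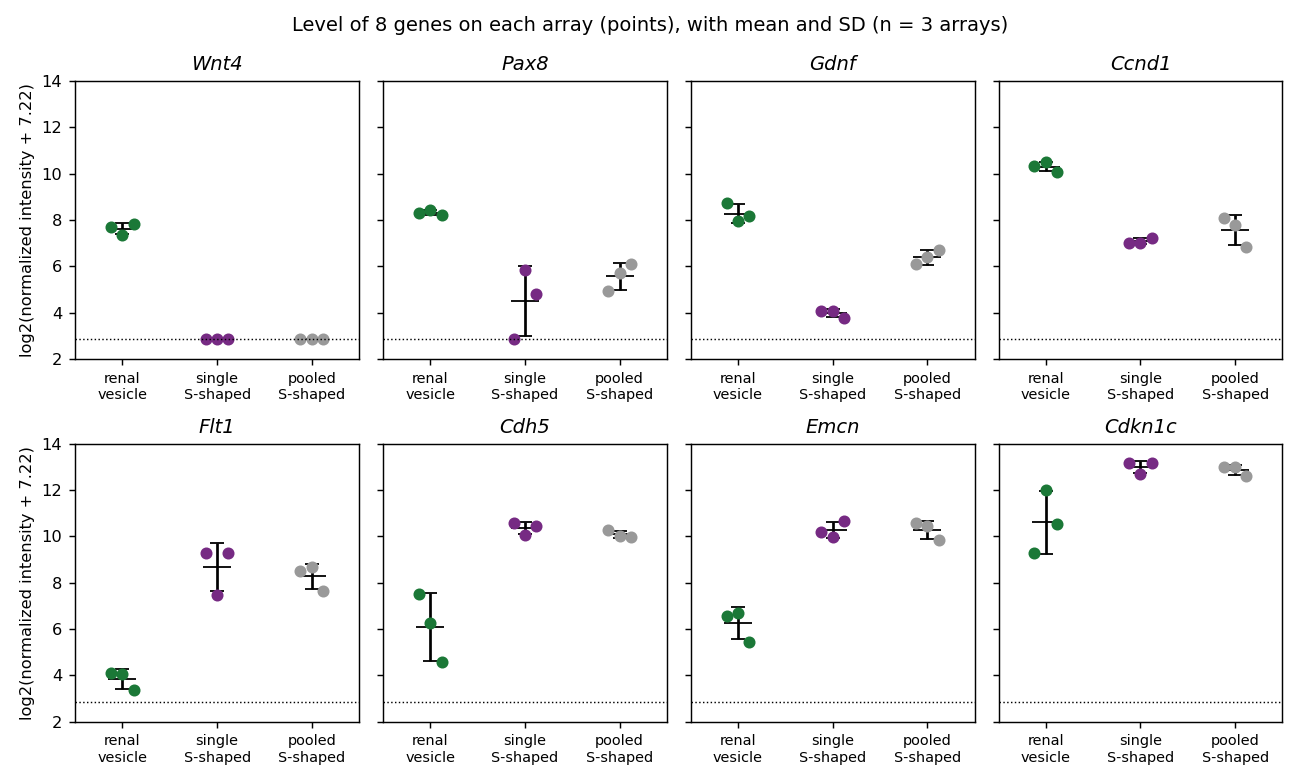
Level of 8 genes on each array (points; log2 of normalized intensity plus 7.22) in renal vesicles, single and pooled S-shaped bodies, with the mean and SD of 3 arrays; the dotted line is a signal of 0. Wnt4, Pax8, Gdnf and the brighter Ccnd1 probe set lie lower and Flt1, Cdh5, Emcn and Cdkn1c higher in single S-shaped bodies than in every vesicle array, with single replicate 3 lowest for Pax8 and single replicate 4 lowest for Flt1.

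Several podocyte genes moved the other way: 6 of 13 tested members rose and 0 fell, 46.2% and 0% against 12.4% and 15.6% of all genes. The median of 1.39 was 0.11 on the deposited scale, where 2 rose and 1 fell. With limma's unadjusted p under 0.05, 9 were higher and 0 lower. Efnb1, an ephrin ligand of the podocyte, read 5.95, 6.62 and 5.74 in vesicles and 10.18, 10.27 and 10.13 in single S-shaped bodies, a difference of 4.09 ± 0.26 (adjusted p = 0.00012). The pooled arrays read 9.80, 9.74 and 9.33. Cdkn1c, the cell cycle inhibitor that podocyte precursors switch on as they stop dividing, read 9.29, 11.99 and 10.54 against 13.16, 12.71 and 13.16 (difference 2.40 ± 0.54, adjusted p = 0.011). For both genes every single array lay above every vesicle array, but the vesicles were spread widely for Cdkn1c.

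Tcf21, a bHLH factor of podocytes and stroma, read 6.54, 8.36 and 6.49 in vesicles and 9.56, 9.62 and 9.90 in single S-shaped bodies (difference 2.57 ± 0.45, adjusted p = 0.0037). Synpo, an actin-associated protein of foot processes, read 4.43, 7.84 and 6.76 against 7.81, 9.68 and 10.20 (difference 2.88 ± 0.85, adjusted p = 0.034), and its groups touched: single replicate 3 lay below vesicle replicate 3. Foxd1, listed among both podocyte and stromal genes, rose by 2.82 and Dag1, the dystroglycan of the cell to matrix contact, by 0.79 (-0.70 on the deposited scale). Without vesicle replicate 2 or 4, or without single replicate 4 or 5, Synpo was no longer called.

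Several podocyte genes were highest among the vesicles on replicate 3. Ptpro, the podocyte receptor phosphatase, read 6.79, 10.95 and 8.94 in vesicles and 11.30, 10.98 and 11.65 in single S-shaped bodies. Vesicle replicate 3 thus came close to the lowest single array, and the difference of 2.42 ± 0.82 missed the threshold (adjusted p = 0.056). Wt1, needed from the mesenchyme through to the podocyte, read 7.94, 9.98 and 8.50 against 8.96, 8.50 and 8.41 (difference -0.18 ± 0.45, adjusted p = 0.80), and without vesicle replicate 3 its difference was 0.41. Foxc2 read 10.08, 10.92 and 10.37 against 11.14, 10.77 and 10.47 (difference 0.34, adjusted p = 0.34). The mean level over the 16 podocyte genes on the array was 5.97, 7.44 and 6.43 in vesicles and 7.86, 8.11 and 8.32 in single S-shaped bodies, so vesicle replicate 3 was the nearest of the vesicles, and all single arrays stood above it. Vegfa, the growth factor that podocytes make for the capillary, was not called (difference 0.60, adjusted p = 0.46).

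Endothelial genes showed the largest median difference of the 22 lists: 20 of 28 tested members rose and 0 fell, 71.4% against 12.4% of all genes, with a median of 2.41 (2.06 with bounds in place of fitted values where the vesicles were at background). With limma's unadjusted p under 0.05, 21 were higher and 0 lower. The mean level over the 32 endothelial genes on the array was 4.96, 5.03 and 4.50 in vesicles and 7.01, 6.67 and 7.15 in single S-shaped bodies, with no overlap, and 7.34, 7.04 and 6.85 in the pools. In bulk RNA a larger number of cells of a type and more RNA per cell cannot be told apart. Vesicle arrays were not free of endothelial signal, since 13 of the 32 genes were above background on all 3 of them, and 12 were above it on none. The count stayed between 18 and 20 when any array was left out and was 12 on the deposited scale, where the median was 1.07.

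Receptors and junction proteins of the endothelium were among those that rose. Flt1, a receptor for VEGF, read 4.12, 4.06 and 3.37 in vesicles, never above background, and 9.29, 7.47 and 9.28 in single S-shaped bodies, at least 17.5-fold higher (difference 4.83 ± 0.52, adjusted p = 0.00049). A second Flt1 probe set read 2.85 on all vesicle arrays and 6.73, 5.48 and 7.82 on the single arrays. Kdr, the main signalling receptor for VEGF, read 4.60, 4.90 and 4.51 against 8.63, 7.35 and 7.63 (difference 3.20 ± 0.39, adjusted p = 0.00079). The groups were far apart for both receptors, and single replicate 4 was lowest among the single arrays for each.

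Cdh5, the cadherin of endothelial junctions, read 7.50, 6.24 and 4.58 in vesicles and 10.57, 10.08 and 10.44 in single S-shaped bodies (difference 4.26 ± 0.60, adjusted p = 0.0014). The vesicle arrays ranged widely while both sets of S-shaped bodies were tight, with pools at 10.26, 10.03 and 9.98. Emcn, a mucin-like surface protein of capillaries, read 6.58, 6.71 and 5.45 against 10.19, 9.98 and 10.65 (difference 4.03 ± 0.35, adjusted p = 0.00026). Eng, a TGF-beta co-receptor, read 8.70, 8.95 and 8.22 against 11.12, 10.89 and 11.36 (difference 2.50 ± 0.22, adjusted p = 0.00026), and so was well detected in vesicles too. Icam2, an adhesion molecule, was at least 11.2-fold higher, and Ednrb, the endothelin B receptor, at least 18.1-fold.

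The transcription factors among them rose as well. Sox17 and Sox18, which specify endothelial identity, rose by 3.98 ± 0.55 and 3.96 ± 0.44. Klf2, a factor induced by flow, read 2.85 on every vesicle array and 7.58, 6.15 and 7.81 on the single arrays, at least 6.19-fold higher. Lmo2 rose by 2.67 with its brighter probe set, while a dimmer one differed by -1.36 (adjusted p = 0.055). Some endothelial genes were not called. Cldn5, the tight junction claudin, read 9.35, 11.20 and 10.13 in vesicles and 10.79, 10.49 and 10.24 in single S-shaped bodies (adjusted p = 0.64). Tek, the angiopoietin receptor, differed by 0.61 (adjusted p = 0.32) and Vwf, which marks mature endothelium, by -0.12 (adjusted p = 0.92).

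Promoters of the endothelial genes that rose are shown because these members moved together, with letters bound by many ETS family factors in capitals. The window is the 250 bases before the transcript start, RefSeq on GRCm38.p6, and entries were found for 10 of the 20 genes. Of 6 motifs searched on both strands, AGGAAG occurred in 5 of the 10, against 27.9% of 5443 promoters of tested genes and 29.2% of all 27025. The longer ETS motif CCGGAAGT, which shares GGAAG with it, occurred in 0 of the 10 and in 5.81% of tested genes. Flt1 and Emcn were picked after their values were seen. A capital CTTCCT is the same motif on the other strand, and a match is a description of the letters only.
Flt1, chr5:147726012-147726261, minus strand: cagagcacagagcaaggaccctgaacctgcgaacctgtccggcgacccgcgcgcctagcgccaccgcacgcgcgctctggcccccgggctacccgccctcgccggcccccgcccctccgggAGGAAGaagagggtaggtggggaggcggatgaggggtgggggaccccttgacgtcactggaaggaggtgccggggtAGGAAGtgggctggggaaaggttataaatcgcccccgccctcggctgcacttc
Emcn, chr3:137340828-137341077, plus strand: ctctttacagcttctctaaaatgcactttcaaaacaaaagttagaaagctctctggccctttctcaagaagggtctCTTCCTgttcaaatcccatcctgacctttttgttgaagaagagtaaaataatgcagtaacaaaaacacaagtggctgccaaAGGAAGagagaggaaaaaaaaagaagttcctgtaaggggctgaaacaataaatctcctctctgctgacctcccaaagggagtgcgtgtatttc

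On the VEGF, PDGF and angiopoietin list, which shares Flt1, Kdr, Tie1, Tek, Flt4 and Angpt2 with the endothelial list, 7 of 18 members rose and 2 fell. These are 38.9% and 11.1%, against 12.4% and 15.6% of all genes. The median of 0.73 turned to -0.37 on the deposited scale. The receptors Flt1, Kdr and Tie1 rose here as above, and so did the ligands Cxcl12 and Efnb2. Nrp1, a co-receptor for VEGF, read 8.04, 8.97 and 8.36 in vesicles and 11.12, 11.001 and 10.90 in single S-shaped bodies (difference 2.55 ± 0.23, adjusted p = 0.00031), and Pdgfra rose by 2.14. Efnb2, the ephrin of arterial cells, rose by 1.07 (adjusted p = 0.031), a call lost without vesicle replicate 2 or 4 or single replicate 3 or 4. Of the ligands, Pdgfa read 10.58, 10.21 and 10.02 against 9.00, 9.03 and 8.70 (difference -1.36 ± 0.20, adjusted p = 0.0015), with no overlap. Vegfb fell by 0.76 (adjusted p = 0.046), a call lost when any array except single replicate 3 was left out, and Vegfa, Vegfc, Pgf, Pdgfb and Angpt2 were not called.

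Of 13 red blood cell genes, 4 rose, 30.8% against 12.4% of all genes, and 9 were not called. Hba-a1, an adult alpha globin, read 7.07, 6.20 and 3.40 in vesicles and 9.79, 10.03 and 10.62 in single S-shaped bodies (difference 4.59 ± 0.78, adjusted p = 0.0032), and Hbb-b2, an adult beta globin, rose by 4.15 ± 0.59. The globin genes have near-identical copies, so which copy was measured is uncertain. The embryonic Hbb-y had the widest range of all genes above background, from 4.75 to 9.26 in vesicles and from 6.41 to 11.79 in single S-shaped bodies, and was not called (adjusted p = 0.15). The 4 that rose were Hba-a1, Hbb-b2, Alas2 and Slc4a1, and 0 fell, with a median of 1.14 (0.05 on the deposited scale). By limma's unadjusted p under 0.05, 6 were higher and 0 lower. The list's mean level was 5.76, 5.25 and 4.80 in vesicles and 7.37, 6.08 and 7.05 in single S-shaped bodies. Without vesicle replicate 3, 2 were called higher, the calls of Alas2 and Slc4a1 having ended, and 1 was called lower without single replicate 3. Alas2 was also lost without vesicle replicate 4, and Slc4a1 without vesicle replicate 2 or single replicate 5. How far blood in the samples has a part in the endothelial result was not tested.

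Of 12 macrophage and leukocyte genes 1 rose, 8.33% against 12.4% of all genes. It was the lysosomal protein Laptm5 (difference 2.46, adjusted p = 0.0498), and that call ended without vesicle replicate 2 or 4 or any single array. None fell, also at limma's unadjusted p under 0.05, where 2 rose, and the median of 0.70 turned to -0.06 on the deposited scale. Csf1r, C1qa, C1qb and Tyrobp were not called. The mean over the 22 genes of this list was 3.85, 3.93 and 3.88 in vesicles and 4.21, 4.16 and 4.47 in single S-shaped bodies, and 13 of them were above background on no vesicle array. Among neuronal and glial genes 1 of 13 rose and 2 fell, 7.69% and 15.4% against 12.4% and 15.6% of all genes. The gene that rose was Gap43 of growing axons (difference 2.21 ± 0.49). Those that fell were Dcx, which was above background on no single array, and Tubb3, by 1.32. Without vesicle replicate 2 Dcx was not called, which left 1. A second Tubb3 probe set differed by 0.29.

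Of 28 members of the stroma and interstitium list 10 rose and 2 fell, 35.7% and 7.14% against 12.4% and 15.6% of all genes. The other 16 were not called, and the median of 0.65 turned to -0.40 on the deposited scale, where 5 rose and 7 fell. Col1a2, a chain of type I collagen, read 2.85, 8.30 and 5.84 in vesicles and 11.52, 10.95 and 11.23 in single S-shaped bodies (difference 5.57 ± 1.06, adjusted p = 0.0054). The vesicle arrays ran from no signal to a clear one, while the single arrays lay close together and the pools read 10.80, 10.92 and 10.53. Acta2, smooth muscle actin, read 2.85, 4.55 and 3.22 against 7.96, 8.38 and 9.09 (difference 4.94 ± 0.51, adjusted p = 0.00041). Both genes stood apart from vesicles in every array.

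Postn, a matricellular protein, read 5.42, 5.97 and 5.31 in vesicles and 7.97, 8.88 and 9.36 in single S-shaped bodies (difference 3.17 ± 0.38, adjusted p = 0.00074). Cxcl12, a chemokine made by stroma and podocytes, read 7.37, 9.59 and 8.56 against 11.38, 11.12 and 11.59 (difference 2.86 ± 0.46, adjusted p = 0.0024). Foxd1, the transcription factor of the cortical stroma, read 4.67, 7.98 and 6.92 against 9.59, 9.30 and 9.14 (difference 2.82 ± 0.68, adjusted p = 0.015), a call that ended without single replicate 3. Vesicle replicate 3 was the highest vesicle for Col1a2, Acta2, Cxcl12 and Foxd1. Col5a2, Twist1, Pdgfra, Col3a1 and Igf1 also rose, while the opioid precursor Penk fell by 2.71 and the matrix protein Tnc was at least 1.91-fold lower. A dimmer Tnc probe set went the other way by 0.25 and was not called (adjusted p = 0.73). Leaving out any 1 array left at most 1 of these 2 falls called: Penk was lost without vesicle replicate 3 or 4 or single replicate 3 or 5, and Tnc without any array except single replicate 3. Among the rises, Col3a1 was lost without vesicle replicate 2 or 4 or single replicate 3 or 4, Twist1 without vesicle replicate 2 or 4 or single replicate 3 or 5, and Igf1 without any 1 of the 6 arrays, its difference being -0.26 on the deposited scale. The stromal list's mean level was 5.31, 6.16 and 5.64 in vesicles and 6.76, 6.76 and 6.62 in single S-shaped bodies.

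Of 18 basement membrane genes 7 rose and 1 fell, 38.9% and 5.56% against 12.4% and 15.6% of all genes. The median was 0.91, and on the deposited scale 0 rose and the median was -0.42. Col4a1, a chain of the ubiquitous type IV collagen, read 11.63, 11.54 and 11.39 in vesicles and 12.54, 12.42 and 12.46 in single S-shaped bodies (difference 0.95 ± 0.11, adjusted p = 0.00068). The difference was modest and the groups did not overlap, as for its partner Col4a2, which rose by 1.19 (-0.32 on the deposited scale). Col18a1, the source of endostatin, read 8.36, 9.16 and 8.30 against 10.48, 10.35 and 10.72 (difference 1.91 ± 0.24, adjusted p = 0.00097). The linkers Nid1 and Nid2 rose by 1.97 and 1.02, Nid2 turning to -0.54 on the deposited scale, and the proteoglycan Hspg2 rose by 1.62, a call lost without vesicle replicate 3. Without single replicate 4 the genes that fell numbered 2.

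The laminin chains did not move as a group. Lama5, the alpha chain of the maturing glomerular membrane, read 4.87, 6.89 and 5.48 in vesicles and 7.92, 7.41 and 7.30 in single S-shaped bodies (difference 1.79 ± 0.49, adjusted p = 0.026). That call ended without vesicle replicate 2 or 4 or any of the single arrays, and a dimmer Lama5 probe set was not called (difference 0.49, adjusted p = 0.77). Lama4, an alpha chain of vessels and mesenchyme, fell from 9.83, 9.92 and 9.87 to 7.51, 8.69 and 7.30 (difference -2.04 ± 0.33, adjusted p = 0.0026). A dimmer Lama4 probe set differed by -0.15 (adjusted p = 0.90), and Lama1, the alpha chain of the early nephron membrane, was not called at -1.89. The type IV chain Col4a5 and the laminin chains Lamb1, Lamb2 and Lamc1 were not called, and Col4a3 and Col4a4 fell under the filter on low signal.

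**Figure D2:**
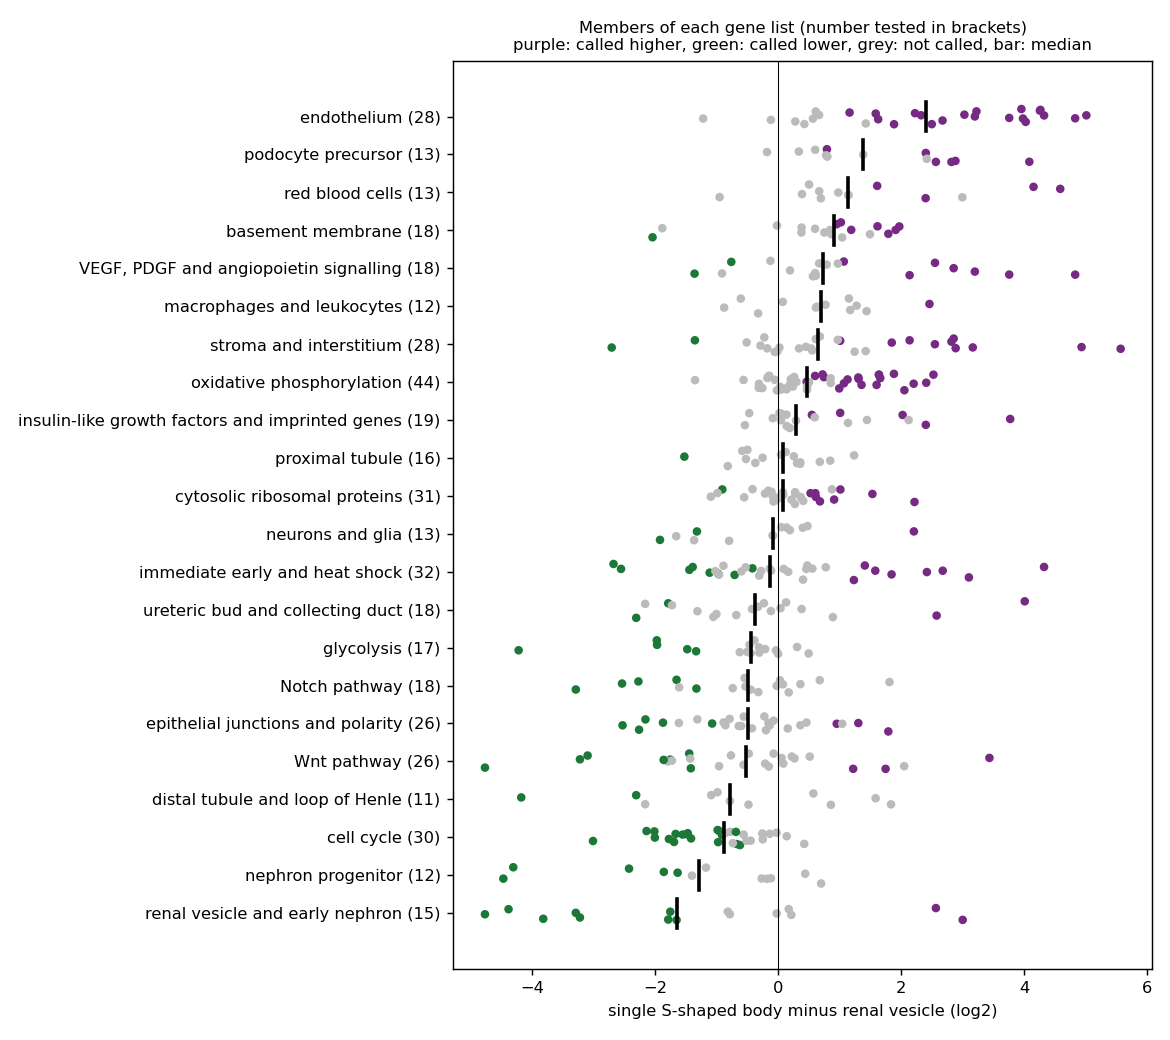
Difference between single S-shaped bodies and renal vesicles (log2, horizontal axis) for every tested member of 22 gene lists, ordered by median, with the number tested in brackets. Purple points were called higher, green lower and grey not called, and the bar is the list median; medians run from 2.41 for endothelium to -1.65 for renal vesicle and early nephron genes.

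Genes of the later tubule segments were counted next. Of 16 proximal tubule genes 0 rose and 1 fell, 0% and 6.25% against 12.4% and 15.6% of all genes. The gene that fell was Gatm of creatine synthesis (difference -1.52 ± 0.37, adjusted p = 0.016). The median of 0.08 turned to -0.51 on the deposited scale. By limma's unadjusted p under 0.05, 1 was higher and 1 lower; without vesicle replicate 3 Gatm was lost and 1 other was called higher. In all, 1 of 18 such genes on the array was above background on all single arrays and 7 on all vesicle arrays. On the deposited scale 4 proximal and 7 distal genes fell. Of 11 distal tubule and loop genes 2 fell after normalization, 18.2% against 15.6% of all genes: Sim1, a bHLH-PAS factor, at least 7.82-fold, from 8.69, 7.25 and 8.09 to 3.88, 3.79 and 3.83, and Wfdc2, a secreted protease inhibitor homologue, at least 1.35-fold. Sim1 was also low in the pools, at 2.85, 4.61 and 3.94. The Iroquois gene Irx3, of the middle and distal nephron, was not called. None rose, against 1 at limma's unadjusted p under 0.05, and 1 was called higher without single replicate 5.

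Ureteric bud and collecting duct genes were counted as markers of the neighbouring epithelium. Of 18 tested, 2 rose and 2 fell (Lhx1 and Wfdc2), 11.1% each against 12.4% and 15.6% of all genes, and on the deposited scale 1 rose and 10 fell. The median was -0.38, or -0.06 with bounds in place of fitted values where 1 group was at background. Of the 26 on the array, 16 were above background on no single array and 10 on no vesicle array. Gata3, a zinc finger factor of the duct and of mesangial precursors, read 5.15, 6.09 and 4.73 in vesicles and 7.54, 7.35 and 8.82 in single S-shaped bodies (difference 2.58 ± 0.48, adjusted p = 0.005). Krt7, a simple-epithelium keratin, read 2.85, 7.51 and 4.22 against 8.92, 7.61 and 10.09 (difference 4.01 ± 1.06, adjusted p = 0.022). Vesicle replicate 3 lay just below the lowest single array, and the call ended when vesicle replicate 2 or 4 or single replicate 3 or 5 was left out, with 1 riser left in each case. Without single replicate 5, 3 of the list fell. Krt8 (adjusted p = 0.82) and Krt18 (adjusted p = 0.27) were not called, and Krt19 and Ret fell under the filter on low signal.

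The epithelial junction and polarity genes gave 3 higher and 5 lower of 26, 11.5% and 19.2% against 12.4% and 15.6% of all genes. Their median was -0.49, or -0.15 with bounds in place of fitted values where 1 group was at background. On the deposited scale 0 were higher and 14 lower, with a median of -1.33. After normalization, 1 was higher without vesicle replicate 2 or 4 or single replicate 3, and 3 were lower without vesicle replicate 3 or 4. Epcam, an adhesion molecule of simple epithelia, read 5.56, 7.28 and 7.41 in vesicles and 4.69, 4.58 and 3.40 in single S-shaped bodies, at least 3.27-fold lower (adjusted p = 0.013, lost without vesicle replicate 3 or 4). Prom1, a protein of apical membrane protrusions, read 9.89, 9.07 and 9.88 against 6.56, 7.91 and 7.58 (difference -2.26 ± 0.37, adjusted p = 0.0026). Cldn3, a tight junction claudin, fell to 3.05 or less on every single array. The pools read 4.74, 4.87 and 4.80, close to the lowest levels above background there (4.67, 4.55 and 4.78). No member of this list was called between single and pooled S-shaped bodies. F11r and Dsp also fell, Dsp not without vesicle replicate 3 or 4 or single replicate 5. Tjp1, Ctnnd1 and Lama5 rose, but Tjp1 and Ctnnd1 differed by -0.02 and -0.58 on the deposited scale, and Ctnnd1 was lost without vesicle replicate 2 or 4 or single replicate 3. Cdh1, E-cadherin, read 6.80, 6.70 and 6.50 against 6.14, 6.27 and 6.32, without overlap but short of the threshold (difference -0.42, adjusted p = 0.30).

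Cell cycle genes were lower in single S-shaped bodies: 18 of 30 tested members fell and 0 rose, 60% against 15.6% of all genes, with a median of -0.88. With limma's unadjusted p under 0.05, 20 were lower and 0 higher. Top2a, the topoisomerase of dividing cells, read 10.54, 9.997 and 10.35 in vesicles and 8.39, 9.07 and 8.77 in single S-shaped bodies (difference -1.55 ± 0.22, adjusted p = 0.0015). Rrm2, which makes deoxyribonucleotides for S phase, read 9.33, 9.13 and 9.28 against 7.57, 7.55 and 7.53 (difference -1.69 ± 0.18, adjusted p = 0.00051). Both were tight within groups, and the pools stood near the single arrays, at 8.68, 8.65 and 8.54 for Top2a.

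Kif11, the motor that separates spindle poles, fell by 2.01 ± 0.29, and Mcm7, of the replicative helicase, by 2.00 ± 0.35. Ccne1, the cyclin of S phase entry, read 7.38, 6.63 and 5.28 in vesicles and 3.14, 4.26 and 2.85 in single S-shaped bodies, at least 2.61-fold lower. Birc5, a member of the chromosomal passenger complex, was at least 2.42-fold lower, a call lost without any 1 vesicle array. Mki67 fell by only 0.62, from 10.69, 10.64 and 10.72 to 9.89, 10.10 and 10.21 (adjusted p = 0.012, lost without vesicle replicate 2 or 4), and Pcna, Ccnb2 and Mad2l1 were not called. The list's mean level was 8.15, 7.88 and 8.05 in vesicles and 6.95, 7.18 and 7.17 in single S-shaped bodies. The count of members that fell was 11 without vesicle replicate 2 and 11 without vesicle replicate 4. It was 8 with the replicate number as a block and 28 on the deposited scale.

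Kifc1, a minus-end spindle motor outside the list, had the largest fall by the naming rule, from 9.36, 8.85 and 9.75 to 2.85, 2.85 and 5.04 (difference -5.74 ± 0.58, adjusted p = 0.00041). The pooled S-shaped arrays read 4.86, 5.18 and 6.62, with single replicate 5 inside their range. Promoters of Top2a and Kifc1 are shown, picked after their values were seen, with the CCAAT box in capitals (ATTGG on the other strand). Of the 18 cell cycle genes that fell, 15 had a promoter entry, and 12 of the 15 (80%) held CCAAT in the 250 bases before the start, against 35.9% of promoters of tested genes and 34.5% of all. TTTGAA, the core of the cell cycle homology region, occurred in 3 of 15 (20%) against 11.2%, and GGCGGGAA, an E2F-type site, in 2 (13.3%) against 3.31%. TATAAA occurred in 0 of 15 against 8.38%. Among promoters of the oxidative phosphorylation genes called higher, 7 of 16 held CCAAT (43.8%).
Top2a, chr11:99024190-99024439, minus strand: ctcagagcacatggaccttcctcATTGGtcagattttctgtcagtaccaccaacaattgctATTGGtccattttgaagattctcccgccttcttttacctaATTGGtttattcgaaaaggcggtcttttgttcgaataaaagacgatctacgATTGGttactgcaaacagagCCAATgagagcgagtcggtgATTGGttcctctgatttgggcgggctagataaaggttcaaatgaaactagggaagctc
Kifc1, chr17:33890634-33890883, minus strand: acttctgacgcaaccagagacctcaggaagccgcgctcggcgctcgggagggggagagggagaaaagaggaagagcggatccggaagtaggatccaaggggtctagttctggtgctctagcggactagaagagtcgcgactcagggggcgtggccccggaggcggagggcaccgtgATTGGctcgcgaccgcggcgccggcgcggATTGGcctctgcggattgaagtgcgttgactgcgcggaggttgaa

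**Figure D3:**
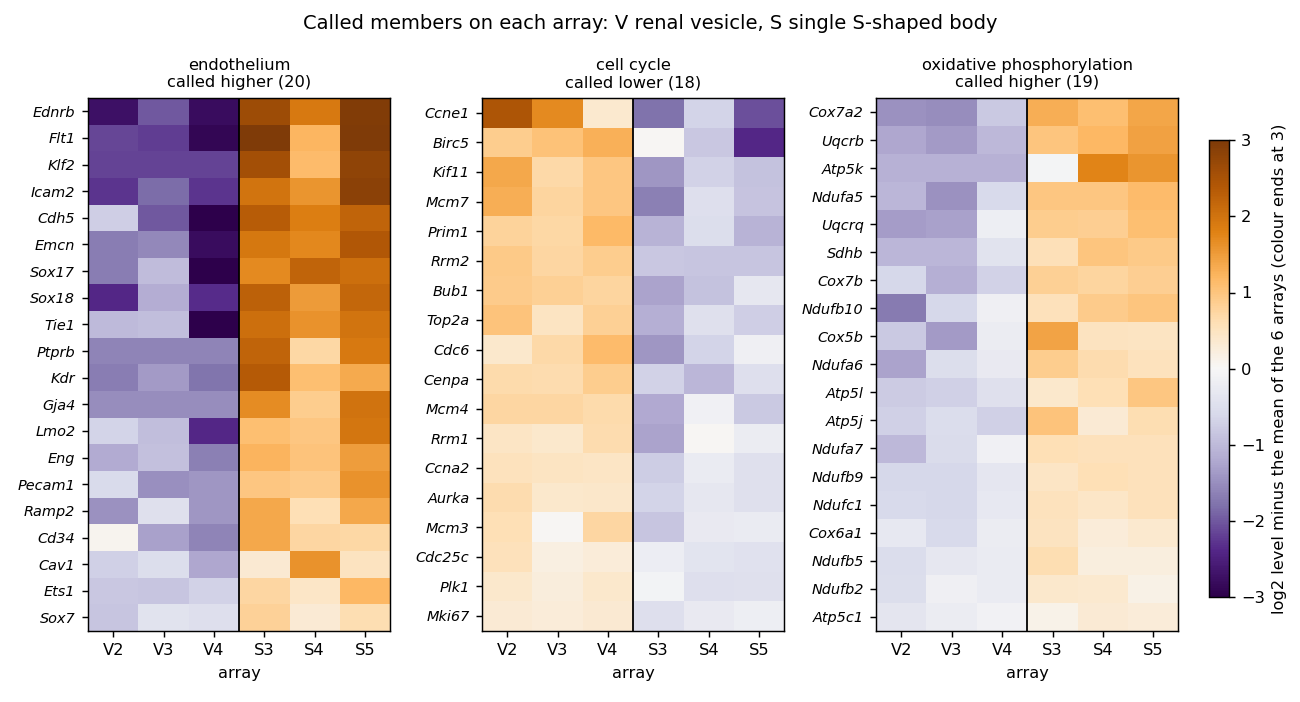
Level of each called member of 3 lists on the 6 arrays, as the difference from that gene's mean over them (log2, colour scale ending at 3 in each direction); V marks renal vesicles and S single S-shaped bodies, with the replicate number. The 20 endothelial and 19 oxidative phosphorylation genes turn from purple to orange and the 18 cell cycle genes from orange to purple, with single replicate 4 often paler among the endothelial genes.

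Of 18 Notch pathway genes 5 fell and 0 rose, 27.8% lower against 15.6% of all genes, with a median of -0.49, and 11 fell on the deposited scale. By limma's unadjusted p under 0.05, 7 were lower and 2 higher. Without vesicle replicate 2 or single replicate 3 or 4, 3 fell, and without the last of these 1 rose. Notch2, the receptor that the proximal nephron depends on, read 10.65, 9.95 and 10.15 in vesicles and 8.06, 7.89 and 7.98 in single S-shaped bodies (difference -2.27 ± 0.21, adjusted p = 0.00031). The ligand Dll1 read 7.61, 7.16 and 7.28 against 5.51, 3.82 and 2.85 and was at 2.85 on all pooled arrays. Rbpj, the DNA-binding partner of the receptors, was at least 1.53-fold lower (adjusted p = 0.033) and the regulator Dtx1 fell by 2.54 (adjusted p = 0.019). Both these calls ended when vesicle replicate 2 or 4 or single replicate 3 or 4 was left out, and that of Rbpj also without vesicle replicate 3. Notch1, Notch3, Notch4 and Jag2 were not called.

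Of 26 Wnt pathway genes 7 fell and 3 rose, 26.9% and 11.5% against 15.6% and 12.4% of all genes. The median was -0.52, or -0.11 with bounds in place of fitted values where 1 group was at background. On the deposited scale 1 rose and 12 fell. Besides Wnt4 and Ccnd1, those that fell after normalization were the secreted antagonists Dkk1, Sfrp2 and Frzb, the receptor Fzd3 and the co-receptor Lrp6. A dimmer Lrp6 probe set was not called (difference -0.17, adjusted p = 0.85). Dkk1, an inhibitor of Wnt co-receptors, was at least 2.75-fold lower, from 6.88, 5.94 and 6.68 to 3.69, 3.07 and 3.45. Its relative Dkk2 went the other way, from 2.85, 3.31 and 2.85 to 6.98, 5.44 and 6.91, at least 3.72-fold higher (adjusted p = 0.0017). Sfrp2, a Wnt-binding protein of the early nephron, read 9.36, 9.00 and 9.19 against 7.33, 7.44 and 7.52 (difference -1.75 ± 0.20, adjusted p = 0.00058), and Frzb fell to levels above background on no single array, a call lost without vesicle replicate 4. The receptor Fzd9 was at least 1.38-fold higher (adjusted p = 0.028), a call lost without vesicle replicate 2 or 3 or single replicate 4 or 5, and Ctnnb1, Lef1 and Axin1 were not called.

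Genes of energy metabolism divided. Of 44 oxidative phosphorylation genes 19 rose and 0 fell after normalization, 43.2% against 12.4% of all genes, with a median of 0.47, but on the deposited scale 1 rose, 12 fell and the median was -0.74. By limma's unadjusted p under 0.05, 21 were higher and 1 lower, and 1 was called lower without single replicate 5. Cox7a2, a subunit of cytochrome oxidase, read 5.88, 5.84 and 6.55 in vesicles and 8.66, 8.44 and 8.74 in single S-shaped bodies (difference 2.53 ± 0.28, adjusted p = 0.00052). Uqcrb, of the cytochrome bc1 complex, read 6.78, 6.63 and 6.99 against 9.00, 9.19 and 9.44 (difference 2.41 ± 0.22, adjusted p = 0.00031). Ndufa5, of complex I, rose by 2.05 and Atp5k, of the ATP synthase, was at least 1.42-fold higher, a call lost without any 1 vesicle array or without single replicate 5. For Cox7a2, Uqcrb and Ndufa5 the groups were far apart and tight, and the pools matched the higher level, for example 9.41, 9.33 and 9.18 for Uqcrb. On the deposited scale these genes differed by 1.05, 0.90 and 0.57 and none was called, whereas Atp5k was called there (1.27). Uqcrc1, Uqcrc2, Sdha and Atp5a1 were not called, with differences between -0.56 and 0.20. Nor were Ndufa1 (0.21) and Cox6c (0.30), while Sdhb (1.66) and Atp5c1 (0.46) were called higher.

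The glycolysis list also holds Bnip3, Slc2a1 and Pdk1, which are not enzymes of the pathway. Of its 17 tested genes 5 fell and 0 rose, 29.4% lower against 15.6% of all genes, with a median of -0.45. On the deposited scale 13 fell and the median was -1.93. By limma's unadjusted p under 0.05, 6 were lower and 0 higher. Ldha, lactate dehydrogenase A, read 10.20, 10.29 and 10.07 in vesicles and 8.02, 8.50 and 8.13 in single S-shaped bodies (difference -1.97 ± 0.19, adjusted p = 0.00032). Hk2, the inducible hexokinase, read 9.03, 7.46 and 8.54 against 2.85, 6.66 and 2.85 (difference -4.22 ± 0.94, adjusted p = 0.011). Pgam1, phosphoglycerate mutase, read 10.23, 10.17 and 10.15 against 8.92, 8.57 and 8.62 (difference -1.48 ± 0.17, adjusted p = 0.00058). The Hk2 result rested on single arrays that disagreed, 2 of them at 2.85, whereas Ldha and Pgam1 were tight. Eno3 and Bnip3 also fell, while Pgk1, Aldoa, Tpi1, Pkm and Ldhb were not called. Without vesicle replicate 2 the count was 2, since Hk2, Eno3 and Bnip3 were lost, and Eno3 was lost without vesicle replicate 4 too.

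Of 31 cytosolic ribosomal protein genes 8 rose and 1 fell (Rpl8), 25.8% and 3.23% against 12.4% and 15.6% of all genes, with 4 rising without vesicle replicate 2. The median was 0.08, and on the deposited scale 0 rose, 8 fell and the median was -0.81. Rps27l, a ribosomal protein paralogue induced by p53, rose by 2.22 ± 0.31 and Rps19 by 1.53 ± 0.19. The immediate early and heat shock list gave 8 higher and 8 lower of 32, 25% each against 12.4% and 15.6% of all genes. There were 4 or 5 lower when any 1 vesicle array was left out, and 3 higher and 16 lower on the deposited scale. Egr1, a zinc finger factor induced within minutes of stimulation, read 8.06, 10.10 and 9.07 in vesicles and 6.51, 7.10 and 5.59 in single S-shaped bodies (difference -2.68 ± 0.53, adjusted p = 0.0063). Its relative Egr2 fell by 2.56 (adjusted p = 0.034) and the chaperones Hspa8 by 0.71 and Dnajb1 by at least 1.67-fold, and all these 3 calls ended without vesicle replicate 4. Egr2 and Dnajb1 were also lost without vesicle replicate 2 or 3 or single replicate 3, Egr2 without single replicate 4 and Dnajb1 without single replicate 5. Klf2, Nr4a1 and Gadd45a rose, Nr4a1 from 4.74, 6.84 and 4.78 to 8.08, 8.09 and 8.22, and Fos, Jun and Atf3 were not called.

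Of 19 insulin-like growth factor and imprinted genes 5 rose and 0 fell, 26.3% and 0% against 12.4% and 15.6% of all genes. The median of 0.29 turned to -0.71 on the deposited scale. By limma's unadjusted p under 0.05, 6 were higher and 0 lower; 3 rose without vesicle replicate 2 or 4 or single replicate 4 or 5. Igfbp3, a binding protein for these growth factors, read 6.75, 5.58 and 4.21 in vesicles and 8.91, 8.44 and 10.51 in single S-shaped bodies (difference 3.77 ± 0.68, adjusted p = 0.0041). Igf1r, the receptor, read 8.002, 8.20 and 8.47 against 10.53, 10.61 and 9.60 (difference 2.03 ± 0.28, adjusted p = 0.0013). Cdkn1c and Mest, both imprinted, and Igf1 completed the 5, with Mest at -0.97 on the deposited scale and lost without vesicle replicate 2 or 4 or single replicate 4 or 5, while Igf2, Igf2r, Peg3 and Plagl1 were not called.

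Some of the largest differences lay outside any list. Mapt, the microtubule-associated protein tau, had the largest rise by the naming rule, from 2.85, 6.30 and 4.72 in vesicles to 11.65, 10.87 and 11.63 in single S-shaped bodies (difference 6.76 ± 0.71, adjusted p = 0.00045). The pools read 11.19, 11.03 and 10.83, and both other Mapt probe sets were called higher as well, by 3.42 and 2.17. Fabp4, a fatty acid carrier of capillaries and fat cells, read 5.92, 5.30 and 4.12 against 11.03, 10.50 and 10.98 (difference 5.72 ± 0.42, adjusted p = 0.00016). Gja3, a gap junction connexin, read 2.85 on all vesicle arrays and 8.56, 6.44 and 7.80 on the single arrays, at least 8.3-fold higher. Ankrd33b rose by 5.25 and Frmd6, a FERM domain protein, by 4.91.

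Among those that fell, Slc32a1, the vesicular transporter for GABA and glycine, read 8.59, 7.29 and 7.37 in vesicles and 2.85 on all single and all pooled S-shaped arrays, at least 6.53-fold lower. St3gal5, which makes the ganglioside GM3, was at least 5.62-fold lower. Sinhcaf, a subunit of the Sin3 histone deacetylase complex, read 9.56, 8.92 and 8.95 against 5.16, 4.25 and 4.55, at least 17.1-fold lower (adjusted p = 0.00017). Cad, the enzyme that starts pyrimidine synthesis, was at least 6.61-fold lower, and Tkt, a transketolase, fell by 4.40 ± 0.44. For Slc32a1 and Sinhcaf the pooled S-shaped arrays were as low as the single ones. A dimmer Cad probe set was not called (difference -0.59, adjusted p = 0.39).

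Single S-shaped bodies were also set against the pools of the same structure. These arrays differed for 37 of 9316 probe sets (23 higher and 14 lower in single, 0.397%), against 1654 at an unadjusted p under 0.05; a fit over all 12 arrays called 238 higher and 239 lower. In all, 17 genes were called in the same direction against both the vesicles and the pools, 12 higher and 5 lower. Gdnf, a progenitor gene, was above background on no single array and at least 2.56-fold lower than in the pools (adjusted p = 0.034), while its dimmer probe set went the other way by 0.59 and was not called. Senp3, a SUMO protease, read 7.87, 7.44 and 7.27 in vesicles, 2.85, 3.20 and 2.85 in single and 6.87, 5.45 and 5.73 in pooled S-shaped bodies. Ldha was 1.42 ± 0.17 lower than in the pools (adjusted p = 0.024), whose own arrays read 9.73, 9.61 and 9.56.

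Serpind1, heparin cofactor II, read 2.85 on the vesicle arrays, 6.30, 7.48 and 6.41 on the single arrays and at most 3.27 in the pools, at least 4.53-fold higher than in vesicles. Ddr2, a collagen receptor kinase, read 5.97, 4.87 and 5.35 in vesicles, 7.19, 7.55 and 7.02 in single and 4.45, 2.85 and 2.85 in pooled S-shaped bodies. Ddr2 was thus above the vesicles on every single array and below them on every pooled array. Polrmt, the mitochondrial RNA polymerase, read 2.85 on all pooled arrays and 7.20, 7.82 and 6.06 on the single arrays, a call against vesicles lost without single replicate 3 or 4, and a second Polrmt probe set differed from vesicles by -0.22 (adjusted p = 0.73). Glb1, lysosomal beta-galactosidase, was called higher with one probe set (0.94, adjusted p = 0.035; -0.52 on the deposited scale) and lower with another (-1.93, adjusted p = 0.035). The first of these calls was lost without any 1 array except single replicate 5. None of Wnt4, Pax8, Flt1, Cdh5, Emcn, Col1a2, Top2a, Cox7a2 or Mapt was called between single and pooled S-shaped bodies, Wnt4 having been under the filter there.

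The spread between arrays was wider among the single S-shaped bodies, with a median SD per probe set of 0.302 against 0.242 in vesicles. Among genes above background on all arrays of the group, the widest ranges in single S-shaped bodies belonged to Hbb-y, Bmpr2, Cwc22, Ptprv and Capn6. Bmpr2, a BMP receptor, read 10.09, 9.95 and 5.74 on the single arrays and 4.004, 6.33 and 7.17 in vesicles and was not called (adjusted p = 0.11). Capn6, a calpain without protease activity, read 8.37, 9.15 and 5.60 against 11.04, 10.38 and 10.93 and fell by 3.08 ± 0.74 (adjusted p = 0.015), a call lost without vesicle replicate 2 or 4. In vesicles the widest ranges belonged to Hbb-y, Ptpro, Cwc22, Igfbp7 and Foxd1. Cwc22, a splicing factor, read 6.32, 10.13 and 7.14 in vesicles and 10.07, 6.42 and 6.89 in single S-shaped bodies, so 1 array of each group was high and the means differed by -0.07 (adjusted p = 0.97).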

How the data were processed

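The deposited table holds 1 linear intensity per probe set and array, with values below 0. The authors made it with GCOS, per the submitters' processing notes, and for the summary method, scaling and background correction nothing is given in the sources used here. The table's column names gave each array's sample, and the sample titles gave its group. All 12 arrays were quantile normalized together without the controls, values were floored at 0, and 7.22 (25% of the median) was added before log2. Probe sets whose mean over the 6 arrays lay under the 25th percentile were left out. Groups were compared with limma 3.58.1 in R 4.3.3 (lmFit, eBayes with trend, two-sided, no covariates), with Benjamini-Hochberg adjustment over all 9316 probe sets and a threshold of 0.05. The script was tested on simulated data. The number of arrays limits the precision.

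A probe set was above background where its signal exceeded the size of that array's 5th percentile, which was negative. The lowest normalized level above background was 5.30, 4.83 and 5.00 on the single arrays and 4.66, 4.44 and 4.54 on the vesicle arrays. A given level could thus be below background on a single array and above it on a vesicle array. GEO's platform annotation gave 1 gene symbol for 10833 probe sets, several for 396 and none for 1193, and the first of these cover 8251 genes. Some of these symbols may be old. Among probe sets with 1 symbol, a gene is represented by the one with the highest mean over the 6 arrays, and other probe sets are mentioned where a difference given for the gene has the other sign there, and for some further genes.

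Genes were named by a rule: in each direction, the 10 largest called differences without overlap between groups, provided the brighter group's mean is above the median of probe sets tested; from each list, the 2 largest called differences; the 5 genes per group with the widest range between arrays; and a short set of markers. Further genes were chosen after their values were seen. The 22 lists cover nephron progenitors, renal vesicle and early nephron, podocyte, proximal and distal tubule, ureteric bud, junctions, basement membrane, stroma, endothelium, red blood cells, macrophages, neurons, cell cycle, Notch, Wnt, stress genes, oxidative phosphorylation, glycolysis, ribosomal proteins, insulin-like growth factors and VEGF signalling, and some genes stand on several. The comparison and the lists were chosen with earlier results of these data known. Vesicles and single S-shaped bodies share replicate numbers 3 and 4 in their titles. The deviations of same-numbered arrays from their group means correlated at -0.033 and 0.012, and nothing in the labels says that a number marks a shared litter or day. Alternatives covered the pseudocount, normalization, filter, spread, samples in the fit, replicate number and each array left out. Collecting duct arrays entered only the normalization and a fit over all 12 arrays.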

Additional observations from a re-analysis of the deposited data

Results flagged for a closer look

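The 17 genes called in the same direction against the vesicles and against the pools are listed here. They were selected in part by limma's test of single against pooled arrays with Benjamini-Hochberg adjustment (n = 3 each). That same test compares their difference from vesicles in single S-shaped bodies with that in pooled ones. Its adjusted p is therefore no separate evidence, and both comparisons use the same single arrays. In each case the number of structures per sample, 1 against 20, moved with the groups, and its part was not tested. The values below are single minus pooled on the log2 scale, with the adjusted p in brackets. Where all arrays of 1 group were below background the fitted value depends on the floor at a signal of 0, so it has no order and the bound beside it is what was measured.

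Of genes lower in single S-shaped bodies, Ldha was measured in both groups and differed by -1.42 (0.024). The other 4 were above background on no single array. Senp3 was at least 1.97-fold lower (fitted -3.05, 0.040), the potassium channel gene Kcnh2 at least 1.80-fold (fitted -3.04, 0.034), the calcium-binding Casq1 at least 1.44-fold (fitted -2.71, 0.034) and Gdnf at least 2.56-fold (fitted -2.43, 0.034). A second Gdnf probe set differed by 0.59. Kcnh2 was not called against vesicles without vesicle replicate 4.

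Of genes higher in single S-shaped bodies, 3 were above background on no pooled array. Polrmt was at least 5.14-fold higher (fitted 4.18, 0.024), Ddr2 at least 6.01-fold (fitted 3.87, 0.025) and Serpind1 at least 4.18-fold (fitted 3.74, 0.024). Gdf3, a TGF-beta family ligand above background on 1 pooled array, differed by 4.33 (0.024) and was not called against vesicles without vesicle replicate 4. Gnrh1, the gonadotropin-releasing hormone gene, differed by 1.89 (0.035), the receptor Lrp10 by 1.75 (0.024), Glb1 by 1.73 (0.047) and the cytolinker Plec by 1.67 (0.034). Rps27l differed by 1.38 (0.035), Htt by 1.07 (0.034), the ubiquitin ligase Nedd4 by 0.99 (0.031) and the semaphorin receptor Plxnd1 by 0.91 (0.024). Second probe sets of 4 of these genes went the other way and were not called, with Nedd4 at -0.19, Lrp10 at -0.21, Polrmt at -0.27 and Glb1 at -1.28, and against vesicles the second probe sets of Nedd4 (0.05) and Lrp10 (0.59) were not called either.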

How the results depend on the processing

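Of 140 genes named and called against vesicles, 100 kept the call whichever array was left out, 46 lost it on the deposited scale and 35 with a replicate block. Over all results and alternatives, gene differences were judged by the threshold, counts of calls by a set ratio and list medians by the spread. By these rules 4212 values stayed the same. In 424 cases a call was lost or a count shrank, and in 91 a call was gained or a count grew. Besides these, 116 list medians moved and 35 gene differences changed sign. With any 1 array left out, 734 to 1052 probe sets were called higher and 801 to 1292 lower. On the deposited scale 217 were higher and 4132 lower, so 4.99% of calls were higher against 46.2%. With the replicate number as a block, 509 were higher and 604 lower; the pairing rests on shared numbers alone. Among probe sets above background on all 6 arrays, an alternative chosen after seeing the data, 945 were higher and 895 lower, so 51.4% of calls were higher. All 12 arrays in 1 fit gave 238 higher and 239 lower in single than in pooled S-shaped bodies, against 23 and 14. The cause of these shifts was not tested.

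The changes of sign were as follows, as single minus vesicle on the log2 scale. On the deposited scale Foxc2 was -1.14, Krt8 -0.24, Nedd4 -0.31, Htt -0.72, Gdf3 -0.35, Glb1 -0.52, Cldn5 -1.25, Col4a2 -0.32, Vegfa -0.70, Tek -0.32, Dag1 -0.70, Igf1 -0.26, Eya1 -0.62, Nid2 -0.54, Ctnnd1 -0.58, Tjp1 -0.018 and Mest -0.97. With the replicate block Krt8 was -0.95, Cldn5 -0.028, Vegfa -0.34 and Vwf 0.28. With any 1 array left out, Krt8 ran from -0.32 to 1.495, Vwf from -0.75 to 0.53, Cldn5 from -0.16 to 0.77, Vegfa from -0.012 to 0.98, Wt1 from -0.61 to 0.41 and Cwc22 from -1.21 to 1.07. Without both arrays numbered 3, a choice also made after seeing the data, Wt1 was 0.24. Cwc22 was 0.0090 with scaling to the 75th percentile, and Vwf was 0.0064 with a pseudocount of 50. Of these genes, Nedd4, Htt, Gdf3, Glb1, Col4a2, Dag1, Igf1, Nid2, Ctnnd1, Tjp1 and Mest had been called. Signal over background limits the low end. Of 26 ureteric genes, 16 were below it on every single array and 10 on every vesicle array. Of 32 endothelial genes, 4 were below it on every single array and 12 on every vesicle array.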
